A study of Mus musculus with 6 samples.

Results

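The genes described here are the 9 that write, keep, erase and read methylated cytosine in DNA: the methyltransferase genes Dnmt1, Dnmt3a and Dnmt3b, the maintenance cofactor gene Uhrf1, the dioxygenase genes Tet1, Tet2 and Tet3, and the methyl-CpG binder genes Mbd1 and Mbd2. They were chosen by symbol, each symbol having 1 row among the 55418 gene symbols of the count table, and all 9 passed the filter on low counts. The cells were MOC2, a line of mouse oral cancer that the labels class as HPV negative head and neck squamous carcinoma, and read counts per gene were measured in polyadenylated RNA. There were 3 libraries labelled EphA4 knockout, from 1 clone of MOC2 cells edited by CRISPR at Epha4 (the H3 clone), and 3 libraries labelled as CRISPR control MOC2 cells. The labels do not say whether the control cells are a clone, and they give both groups as untreated, passaged 2 times after thawing and of 1 batch. The comparison shows which transcripts differ between the edited cells and the control cells.

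In vertebrate cells a methyl group is placed on cytosine mostly where it is followed by guanine. Dnmt3a and Dnmt3b encode the enzymes that set new marks, while Dnmt1 copies existing marks onto the daughter strand at replication forks, where the Uhrf1 protein binds hemimethylated DNA and recruits it. TET enzymes oxidise methylcytosine, which leads to its removal by dilution or by base excision repair, and methyl-CpG binding proteins recruit repressive complexes to the mark. Methylation itself was not measured, only the transcripts of these genes.

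Library totals were 35807059 to 37174736 counts in the EphA4 knockout libraries and 35115926 to 41775031 in the control libraries, so 1 count equalled 0.0239 to 0.0285 CPM (counts per 1000000 counts of the library). Epha4, the targeted gene, had 3483, 3815 and 3606 counts in the EphA4 knockout libraries, against 1907, 2110 and 2250 in the control libraries. It was higher in the libraries labelled knockout (log2 fold change 0.86, SE 0.06, adjusted p = 2.1e-06). The summed count thus shows no loss of its transcript, and loss of the protein cannot be read from it. The edited site cannot be seen in a count summed over the gene, and directions are therefore given for the libraries as labelled. EphA4 knockout replicate 3 stood apart: processed pseudogenes took 1.41% of its counts and 0.255% to 0.307% of those of the other 5 libraries. Without it the log2 fold changes were 0.70 for Dnmt1, 0.98 for Uhrf1, 1.14 for Tet3, -0.22 for Dnmt3a, -3.30 for Tet1, -0.99 for Tet2 and -0.70 for Mbd2, each still called. Epithelial markers, 8 higher and 2 lower of 10 tested among 12, summed to 4630 to 4710 CPM in the EphA4 knockout libraries against 4290 to 4340 CPM in control. Among the 8 higher, Krt6a had 68, 70 and 71 counts in the EphA4 knockout libraries against 7, 11 and 13 in the control libraries. It passed the filter only through the EphA4 knockout group, so a higher value was the only call open to it. Krt8, Krt18, Cdh1 and Epcam averaged between 627 and 1637 CPM in both groups. Krt5 and Trp63 had 0 and 2 counts over the EphA4 knockout libraries and 2 and 2 over the control libraries. Other basal or squamous markers of the list were present. Dsp, Itgb4, Sfn and Pkp1 averaged 282, 268, 108 and 15.4 CPM in the EphA4 knockout libraries against 157, 224, 56.6 and 6.77 CPM in control. Krt14 was low, at 1.83 CPM against 3.72 CPM in control. Markers of fibroblasts, 9 in all, summed to 1.95 to 2.03 CPM in the EphA4 knockout libraries against 48.5 to 51.8 CPM in the control libraries, with Lum at 0 in both and Dcn at 0 in the EphA4 knockout libraries only. All 5 tested were lower, but Col1a1, Col3a1, Pdgfrb and Dcn passed the filter only through the control group, so a lower value was the only call open to them. Col1a2, below the filter, went the other way, with 8, 11 and 10 counts in the EphA4 knockout libraries and 4, 0 and 1 in the control libraries. Leukocyte markers, 1 higher and 1 lower of 2 tested among 8, summed to 11.8 to 13.2 CPM against 22.0 to 24.9 CPM in control, with Cd3e, Itgam and Nkg7 at 0, and endothelial markers, none called of 1 tested among 6, summed to 0.592 to 1.24 CPM against 1.34 to 1.63 CPM, with Emcn at 0. The part of other cell types in the results was not tested.

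Of the 9 genes, 3 rose (Dnmt1, Uhrf1 and Tet3), 5 fell (Dnmt3a, Tet1, Tet2, Mbd1 and Mbd2) and Dnmt3b did not pass, at an adjusted p of 0.05 in edgeR's quasi-likelihood test over 15199 genes. Tet1 passed the filter on low counts only through the control group. Most genes differed between the groups: 71.5% of all tested genes passed, 32.7% as higher and 38.8% as lower. Against that background the 8 calls of 9 (88.9%) say little about these genes, and the sizes and directions are what is described here. The median log2 fold change of the 9 genes was -0.18, against -0.04 over all tested genes. In 8 of the 9 all EphA4 knockout libraries lay on one side of all control libraries, as they did in 76.1% of all tested genes. Nothing in the labels ties the samples of a group to separate cultures. The p-values therefore reflect the spread among these samples alone, and that spread may be technical.

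**Figure D1:**
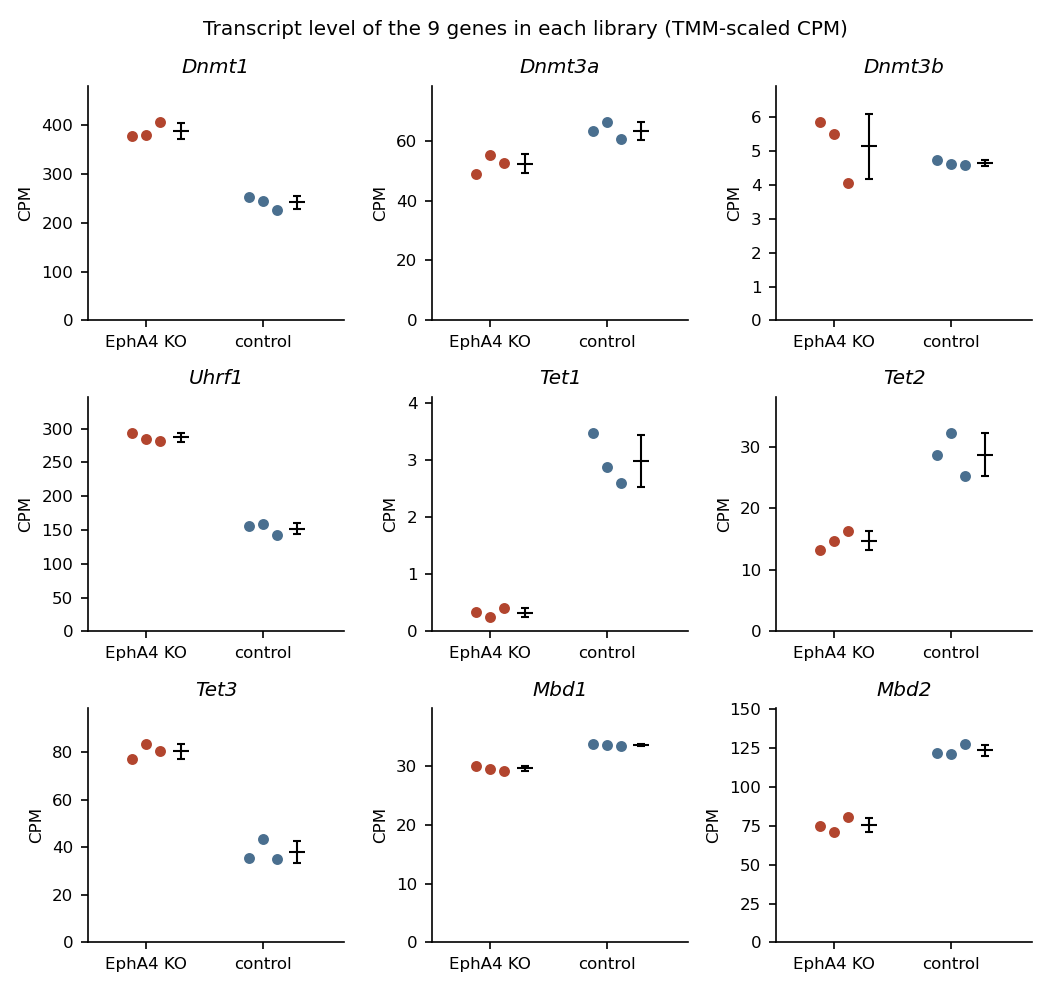
Level of each of the 9 genes in each library, in TMM-scaled CPM on axes that start at 0. Points are libraries, and the bar beside them is the mean with the SD (n = 3). The EphA4 knockout points lie above all control points for Dnmt1, Uhrf1 and Tet3, below them for Dnmt3a, Tet1, Tet2, Mbd1 and Mbd2, and on both sides of them for Dnmt3b.

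The maintenance pair rose together. Dnmt1 had 13518, 13988 and 14950 counts in the EphA4 knockout libraries, against 9401, 8642 and 9457 in the control libraries. Every EphA4 knockout library was above every control library, and the means were 388 ± 16.3 CPM and 242 ± 13.6 CPM in control (SD, n = 3 each). The log2 fold change was 0.68 (SE 0.05, adjusted p = 2.6e-06), or 1.61-fold. Uhrf1, whose protein guides Dnmt1 to newly replicated DNA, had 10509, 10508 and 10364 counts in the EphA4 knockout libraries, against 5759, 5602 and 5947 in the control libraries. Its level was thus nearly the same within each group, 287 ± 6.21 CPM in the EphA4 knockout libraries and 152 ± 8.42 CPM in control (SD, n = 3 each). The log2 fold change was 0.91 (SE 0.04, adjusted p = 2.4e-07), and 14.8% of all tested genes had a higher one. The ratio of Uhrf1 to Dnmt1 counts within a library, which needs no scaling between libraries, was 0.777, 0.751 and 0.693 in the EphA4 knockout libraries and 0.613, 0.648 and 0.629 in the control libraries. Its groups did not overlap (two-sided exact permutation p = 0.1, the smallest that 3 against 3 allows).

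The promoters of these genes are shown because both members of the pair carry letters of the E2F motif, which is common in genes induced at the start of DNA replication. RefSeq promoters of build GRCm38.p6, covering 250 bases before and 50 after a gene's start, were matched by symbol for 7 of the 9 genes, all but Mbd1 and Mbd2. The words TTTCCCGC, TTTCGCGC, TTTGCCGC and TTTGGCGC were searched on both strands. At least 1 word stood in a promoter of Dnmt1 and of Uhrf1 and in none listed for Dnmt3a, Dnmt3b, Tet1, Tet2 or Tet3, and in 4.66% of the 10401 tested genes that have a promoter in the table. Hells, the chromatin remodeller described below, and Tet3, which rose without such a word, are given for comparison. Capitals mark the words, and each promoter runs 5′ to 3′ on the gene's strand. The Dnmt1 promoter is chr9:20952574-20952873 on the minus strand, that of Uhrf1 chr17:56304063-56304362 on the plus strand, that of Hells chr19:38930740-38931039 on the plus strand, and that of Tet3 chr6:83441629-83441928 on the minus strand.
Dnmt1: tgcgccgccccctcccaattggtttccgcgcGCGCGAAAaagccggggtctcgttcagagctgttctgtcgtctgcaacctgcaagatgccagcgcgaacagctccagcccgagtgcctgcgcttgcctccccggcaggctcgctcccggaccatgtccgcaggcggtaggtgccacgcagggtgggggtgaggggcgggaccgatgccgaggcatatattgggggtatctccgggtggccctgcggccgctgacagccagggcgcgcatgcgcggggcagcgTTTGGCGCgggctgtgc
Uhrf1: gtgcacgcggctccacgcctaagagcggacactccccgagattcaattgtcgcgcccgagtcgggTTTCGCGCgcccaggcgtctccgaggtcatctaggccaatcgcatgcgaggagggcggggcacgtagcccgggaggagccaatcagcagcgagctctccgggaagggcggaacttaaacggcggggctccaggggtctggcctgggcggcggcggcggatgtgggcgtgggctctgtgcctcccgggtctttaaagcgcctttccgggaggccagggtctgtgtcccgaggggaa
Hells: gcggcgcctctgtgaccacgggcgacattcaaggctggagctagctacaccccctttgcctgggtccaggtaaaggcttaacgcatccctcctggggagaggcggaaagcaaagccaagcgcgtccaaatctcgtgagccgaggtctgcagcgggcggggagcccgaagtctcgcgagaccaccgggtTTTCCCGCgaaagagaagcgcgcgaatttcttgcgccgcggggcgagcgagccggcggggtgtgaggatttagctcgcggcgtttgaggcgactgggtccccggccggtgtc
Tet3: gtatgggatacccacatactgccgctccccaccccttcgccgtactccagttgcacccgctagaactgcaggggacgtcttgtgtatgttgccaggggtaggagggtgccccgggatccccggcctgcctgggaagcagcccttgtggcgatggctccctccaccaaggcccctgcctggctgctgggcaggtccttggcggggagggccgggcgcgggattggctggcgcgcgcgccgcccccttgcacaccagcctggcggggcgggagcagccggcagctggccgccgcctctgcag
The promoters printed for Dnmt1 and Uhrf1 are those of the most downstream start listed for each gene. In Dnmt1 the word TTTCGCGC lies on the opposite strand, beginning 219 bases before that start. TTTGGCGC begins at base 34 of the transcript from that start. Uhrf1 has TTTCGCGC 185 bases before its printed start and Hells has TTTCCCGC 62 bases before its start, both on the gene's strand. The words of Dnmt1 and Uhrf1 thus lie downstream of the other starts listed for these genes. The other 2 starts listed for Dnmt1 and the other start for Uhrf1 hold none of the words. CpG pairs number 33, 33, 34 and 22 in the 4 promoters in the order printed. Over all 32851 promoters the median was 7 and the upper quartile 20. The other starts hold fewer, 2 and 12 for Dnmt1 and 12 for Uhrf1. The promoters of Dnmt1 and Uhrf1 were printed for their words, each of which contains a CpG. A match of letters is a description and not a binding site, and promoter activity or methylation was not measured.

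Transcripts of DNA replication genes rose alongside the pair. Of 33 listed S phase genes 28 rose, 1 fell (Gins4, by 0.15 on the log2 scale) and 4 did not pass, with a median log2 fold change of 0.78. That is 87.9% called, against 71.5% of all genes, of which 32.7% were higher. The call of Gins4 was lost with relative log expression factors, with DESeq2, with the 20 highest genes left out, at an adjusted p of 0.01 and without any 1 library. Their summed level was 4580 to 4660 CPM in the EphA4 knockout libraries and 2610 to 2660 CPM in the control libraries, and none was at 0. The cyclin gene Ccne2, the licensing factor gene Cdc6, the flap endonuclease gene Fen1 and the ribonucleotide reductase gene Rrm2 led with log2 fold changes of 2.18, 1.61, 1.60 and 1.51. Gene models on the opposite strand share 78.8% of the exon bases of Fen1 and 17.4% of those of Ccne2, so their reads are uncertain. An E2F word stood in promoters of 12 of the 26 S phase genes with a promoter in the table, or 46.2%.

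Divided by the summed S phase counts, which also rose, the difference in the maintenance pair was small. Per 1000 summed S phase counts, a ratio chosen after the fold changes were seen, Dnmt1 had 81.0, 82.6 and 86.8 counts in the EphA4 knockout libraries and 97.55, 92.8 and 85.1 in the control libraries. These ranges overlapped, and the difference did not pass (two-sided exact permutation p = 0.2). Uhrf1 had 63.0, 62.07 and 60.19 in the EphA4 knockout libraries against 59.76, 60.16 and 53.52 in control, which nearly touch (exact permutation p = 0.1). Tet3 had 16.52, 18.21 and 17.14 against 13.66, 16.43 and 13.19 in control (exact permutation p = 0.1). Mbd2 had 16.2 ± 0.863 in the EphA4 knockout libraries on this scale, against 46.9 ± 0.946 in control (SD, n = 3 each). The S phase genes themselves summed to 508271 counts over the EphA4 knockout libraries and 300606 over the control libraries. A gene that did not change therefore falls on this scale. Mbd1, with a log2 fold change of only -0.18, had 6.36 ± 0.115 against 12.7 ± 0.235 in control (SD, n = 3 each). Any gene that rose about as much as the S phase sum is level on this scale. The overlap of Dnmt1 therefore cannot decide whether it follows S phase. Whether a larger share of cells in S phase accounts for the rise of Dnmt1 and Uhrf1 was not tested, and in bulk RNA more cells in a phase and more RNA per cell cannot be told apart.

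**Figure D2:**
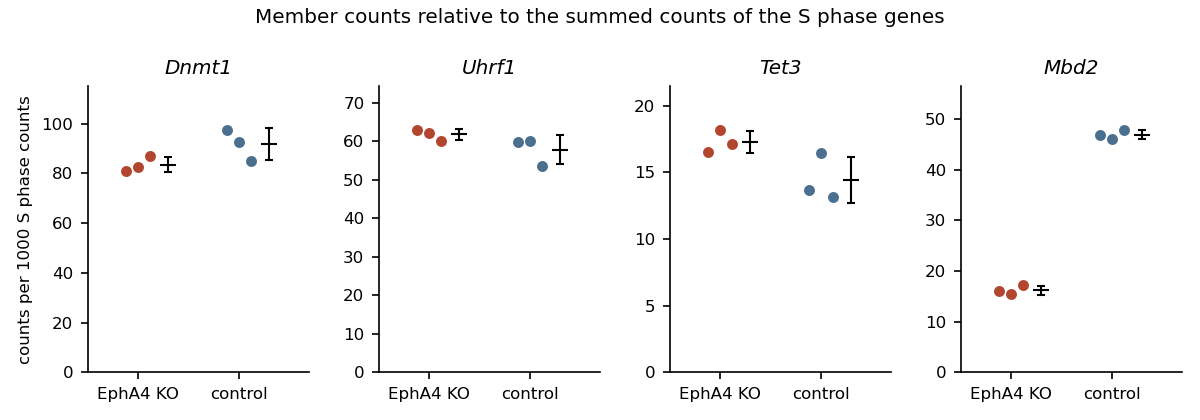
Counts of Dnmt1, Uhrf1, Tet3 and Mbd2 per 1000 summed counts of the 33 S phase genes, in each library, on axes that start at 0. Bars are means with the SD (n = 3). Dnmt1 overlaps between the groups and Uhrf1 and Tet3 nearly do, whereas Mbd2 is at 16.2 in the EphA4 knockout libraries against 46.9 in control. The S phase counts were themselves higher in the EphA4 knockout libraries, which lowers every gene on this scale there.

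The genes of new methylation did not follow Dnmt1. Dnmt3a had 1752, 2038 and 1931 counts in the EphA4 knockout libraries, against 2340, 2340 and 2517 in the control libraries. All 3 EphA4 knockout libraries were lower, by a small margin, with 52.3 ± 3.13 CPM against 63.3 ± 2.94 CPM in control (SD, n = 3 each). This is a log2 fold change of -0.28 with an adjusted p of 0.0028 (SE 0.06). Dnmt3b, which is prominent in early embryos, was scarce, with 210, 203 and 149 counts in the EphA4 knockout libraries and 176, 163 and 192 in the control libraries. EphA4 knockout replicate 3, the library apart in pseudogenes, was the lowest of all 6, and the other 2 were the highest. The log2 fold change of 0.14 had a 95% interval of -0.31 to 0.59 and did not pass (adjusted p = 0.53), and without that replicate it was 0.35 (adjusted p = 0.063). An antisense gene model shares 0.799% of the exon bases of Dnmt3a, and no gene model of GENCODE M21 overlaps the exons of Dnmt1, Dnmt3b or Uhrf1.

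Among the 3 methyltransferase transcripts, the share of Dnmt1 was higher in every EphA4 knockout library. Counts were divided by the length of the longest annotated transcript, and Dnmt1 then made up 90.9%, 90.3% and 91.6% of the family in the EphA4 knockout libraries, against 85.0%, 84.1% and 84.1% in control. The share of Dnmt3a averaged 7.43% ± 0.470 against 13.4% ± 0.507 in control, and that of Dnmt3b 1.65% ± 0.359 against 2.21% ± 0.0936 (SD, n = 3 each). No share overlapped between the groups (exact permutation p = 0.1 for each). The sizes depend on the lengths used: the differences of 6.53 percentage points for Dnmt1, -5.97 for Dnmt3a and -0.566 for Dnmt3b were 11.5, -11.2 and -0.267 with mean transcript lengths.

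The TET genes went in opposite directions. Tet3, the member that acts on the paternal genome of the zygote and is widely expressed in adult tissues, had 2756, 3082 and 2952 counts in the EphA4 knockout libraries, against 1316, 1530 and 1466 in the control libraries. The lowest EphA4 knockout library was well above the highest control library, with 80.3 ± 3.22 CPM against 38.0 ± 4.62 CPM in control (SD, n = 3 each). Its log2 fold change of 1.08 (SE 0.08, adjusted p = 3.6e-06) was the highest of the 9, and 11.8% of tested genes rose further. Tet2, known as a tumour suppressor of blood cells, had 473, 539 and 598 counts in the EphA4 knockout libraries, against 1062, 1139 and 1051 in the control libraries. It fell to 14.7 ± 1.53 CPM, against 28.7 ± 3.52 CPM in control (SD, n = 3 each), or by 0.96 on the log2 scale (SE 0.11, adjusted p = 6e-05). An antisense gene model shares 0.255% of its exon bases.

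Tet1, the TET gene best known from embryonic stem cells and germ cells, was the scarcest of the 9. It had 12, 9 and 15 counts in the EphA4 knockout libraries, against 129, 102 and 108 in the control libraries. At 0.329 ± 0.0823 CPM against 2.99 ± 0.452 CPM in control (SD, n = 3 each) it was low in both groups and lower in every EphA4 knockout library. The log2 fold change was -3.17 (SE 0.33, adjusted p = 2.8e-05), or 8.99-fold lower, and 7.55% of tested genes had a lower one. With so few counts the size is known only to an interval of -3.92 to -2.41 on the log2 scale. Tet1 passed the filter on low counts only through the control group, so a higher value was not a call open to it. With no filter the log2 fold change was -3.23 (edgeR adjusted p = 2e-05).

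Tet3 made up most of its family in the EphA4 knockout libraries. Per kilobase it took 82.8%, 82.7% and 80.4% of TET transcripts in the EphA4 knockout libraries, against 49.2%, 51.7% and 52.4% in the control libraries. Tet2 took 16.9%, 17.2% and 19.3% against 47.2%, 45.7% and 44.7% in control, and Tet1 took 0.256% ± 0.0653 against 3.07% ± 0.536 (SD, n = 3 each). The EphA4 knockout libraries held 5.83, 5.72 and 4.94 Tet3 counts per Tet2 count, against 1.24, 1.34 and 1.39 in control. All these ratios were apart between the groups (exact permutation p = 0.1, the smallest possible). With mean transcript lengths the difference in the Tet1 share was -4.81 percentage points, against -2.81 with the longest.

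**Figure D3:**
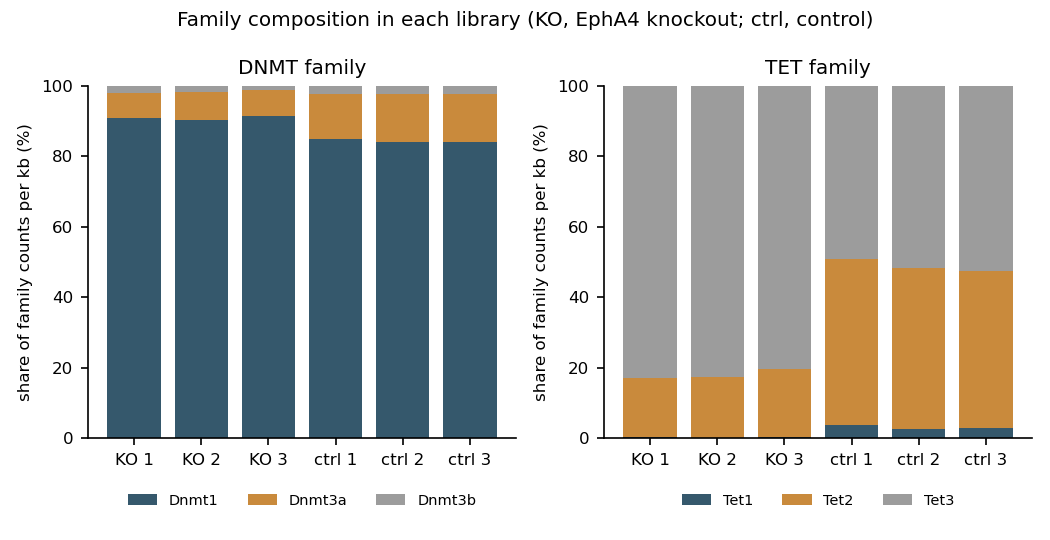
Share of each gene in its family in each library, in percent of counts per kilobase of longest annotated transcript, for the DNA methyltransferases (left) and TET enzymes (right). Tet3 is at 80.4% to 82.8% in the 3 EphA4 knockout libraries (KO) against 49.2% to 52.4% in the 3 control libraries (ctrl), and Dnmt1 is at 90.3% to 91.6% against 84.1% to 85.0%.

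Both methyl-CpG binder genes were lower, Mbd2 clearly and Mbd1 marginally. Mbd2, whose protein brings the NuRD repressor complex to methylated DNA, had 2677, 2619 and 2956 counts in the EphA4 knockout libraries, against 4516, 4282 and 5319 in the control libraries. No EphA4 knockout library came near the control range, with 75.4 ± 4.76 CPM against 124 ± 3.52 CPM in control (SD, n = 3 each). On the log2 scale Mbd2 fell by 0.71 (SE 0.05, adjusted p = 2.6e-06). Mbd1, a binder that also holds CXXC zinc fingers, had 1073, 1086 and 1072 counts in the EphA4 knockout libraries, against 1250, 1183 and 1389 in the control libraries. Its level was 29.5 ± 0.428 CPM against 33.5 ± 0.195 CPM in control (SD, n = 3 each), apart but close. Its log2 fold change of -0.18 (SE 0.05, adjusted p = 0.012) is not a firm call. Leaving out any 1 of the 6 libraries gave -0.17 to -0.12 and adjusted p of 0.07 to 0.18, and DESeq2 gave -0.15 and an adjusted p of 0.093.

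**Figure D4:**
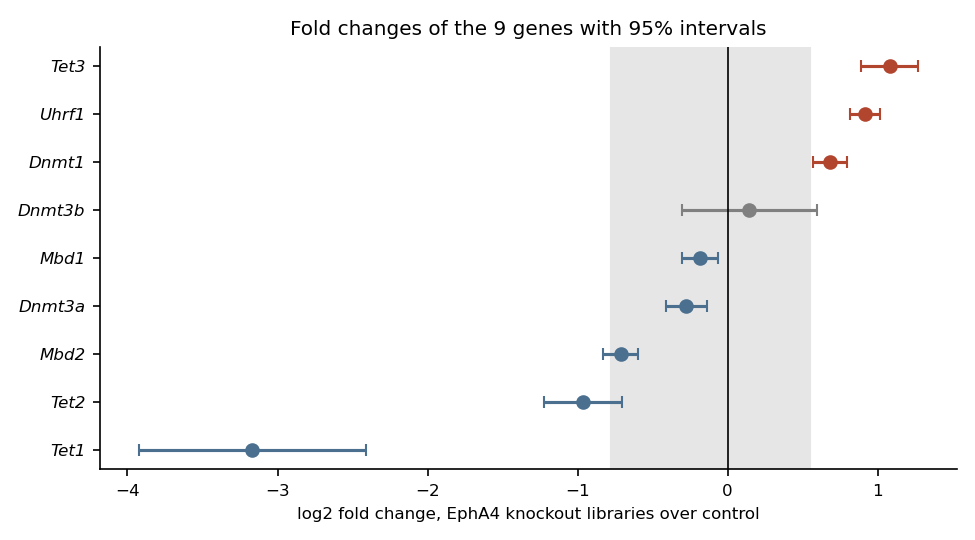
Log2 fold change of each of the 9 genes, EphA4 knockout libraries over control, with its 95% interval. Red marks genes called higher, blue lower and grey not passing, and the grey band spans the interquartile range of all tested genes. Tet3, Uhrf1 and Dnmt1 lie above the band, Tet2 and Tet1 below it at -0.96 and -3.17, and the interval of Dnmt3b, -0.31 to 0.59, includes 0.

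The order of the 9 genes by level differed between the groups. In the EphA4 knockout libraries, in levels of CPM per kilobase of longest transcript, Uhrf1 was highest at 80.0 ± 1.73, followed by Dnmt1 at 66.1 ± 2.78, Mbd2 at 38.6 ± 2.44, Mbd1 at 7.54 ± 0.109, Tet3 at 7.37 ± 0.296, Dnmt3a at 5.40 ± 0.323, Tet2 at 1.60 ± 0.166, Dnmt3b at 1.19 ± 0.222 and Tet1 at 0.0229 ± 0.00573 (SD, n = 3). Mbd1 and Tet3 did not differ there beyond their spread. In the control libraries Mbd2 led at 63.3 ± 1.80 CPM per kilobase, followed by Uhrf1 at 42.5 ± 2.35, Dnmt1 at 41.2 ± 2.31, Mbd1 at 8.55 ± 0.0498, Dnmt3a at 6.53 ± 0.303, Tet3 at 3.49 ± 0.423, Tet2 at 3.13 ± 0.383, Dnmt3b at 1.08 ± 0.0182 and Tet1 at 0.208 ± 0.0315 (SD, n = 3). Uhrf1 and Dnmt1 did not differ beyond their spread in control, nor did Tet3 and Tet2. The transcript forms in use are unknown, so levels between genes depend on the length chosen.

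Across the 6 libraries, the tested genes nearest to a member's centred log2 CPM profile were searched among 9314 genes whose log2 CPM averaged 3 or more. Mitochondrial genes and genes with numbered Gm symbols or symbols ending in Rik were left out of this search. Dnmt1 lay nearest to Gas8, Sec23ip and Mlxip, at root mean square distances of 0.0229, 0.0241 and 0.0257 in log2 CPM. Uhrf1 lay nearest to Ube4a, Lrrc8b and Mfsd1 (0.0184, 0.0199 and 0.0297) and Tet3 to Wdfy3, Zgrf1 and Ubr1 (0.0380, 0.0403 and 0.0449). Tet2 lay nearest to Arhgap12, Sox4 and Apcdd1 (0.0710, 0.0766 and 0.0821), Mbd2 to Zfp53, Terf1 and Pank4 (0.0249, 0.0303 and 0.0342), and Tet1 to Rasa4, Lix1l and Parp10 (0.107, 0.117 and 0.146). Dnmt3a, Dnmt3b and Mbd1 lay nearest to Trappc3 (0.0220), Usp49 (0.0505) and Eef2 (0.0152). With 2 groups of 3 libraries this mostly picks genes with a group difference of like size.

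Partners of the methyltransferases were mostly higher. Of 12 tested among 14 listed, 9 rose and 2 fell, or 91.7% called against 71.5% of all genes, with a median log2 fold change of 0.55. Hells, a chromatin remodeller needed for methylation of repeats, had 11266, 11933 and 12461 counts in the EphA4 knockout libraries, against 2720, 2828 and 3749 in the control libraries. It rose 4.01-fold, to 326 ± 12.2 CPM against 81.1 ± 8.34 CPM in control (SD, n = 3 each, adjusted p = 3.5e-08), the largest rise of the list. Usp7, a deubiquitinase that stabilises Uhrf1 and Dnmt1, rose to 293 ± 9.24 CPM against 177 ± 6.75 CPM in control, and Trdmt1, a relative of the methyltransferases that acts on transfer RNA, rose by a log2 fold change of 0.76.

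Recognition of methylated imprinting control regions needs Zfp57, which binds them and recruits Trim28 and the histone methyltransferase Setdb1. Zfp57 had 523, 588 and 497 counts in the EphA4 knockout libraries, against 2389, 1838 and 2230 in the control libraries. It fell 3.85-fold, to 14.7 ± 1.21 CPM against 56.7 ± 6.77 CPM in control (SD, n = 3 each, adjusted p = 3e-07). Trim28 and Setdb1, named for this link after their values were seen, rose by log2 fold changes of 0.62 and 0.51. Dnmt3l, the catalytically inactive partner of Dnmt3a in germ cells, had 4 counts in 1 EphA4 knockout library and 0 in the other 5, and Dnmt3c had 0 in all 6. Both stayed below the filter.

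Other MBD family genes and zinc finger readers of methylated DNA went both ways, 3 higher and 2 lower of 8 (62.5% called against 71.5% of all genes). Mbd3, which sits in NuRD complexes in place of Mbd2 and whose mammalian protein does not favour methylated CpG, rose to 142 ± 6.96 CPM against 93.8 ± 2.33 CPM in control (SD, n = 3 each, adjusted p = 3e-06). As Mbd2 fell, Mbd3 counts per Mbd2 count were 1.94, 1.89 and 1.83 in the EphA4 knockout libraries and 0.754, 0.768 and 0.755 in the control libraries (exact permutation p = 0.1). The zinc finger reader gene Zbtb33, also called Kaiso, rose by a log2 fold change of 1.06 (an opposite-strand gene shares 9.25% of its exon bases), and its relative Zbtb4 fell to 10.2 ± 1.71 CPM against 38.0 ± 2.94 CPM in control.

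NuRD subunits moved by small amounts, 7 higher and 4 lower of 12 (91.7% called against 71.5% of all genes), with a median log2 fold change of 0.20. Rbbp4 and Rbbp7 both rose, as did Gatad2a and Gatad2b, all named after their values were seen. Chd4, the main helicase of the complex, rose by a log2 fold change of 0.51 (SE 0.04) and its paralog Chd3 fell by 0.61 (SE 0.04). Mta3 and Mta1 fell by 0.70 and 0.59 on the log2 scale, and Mta2, named after its value was seen, rose by 0.43.

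Genes that act with or after TET enzymes had 4 higher and 6 lower of 13 tested among 15, or 76.9% called against 71.5% of all genes. Tdg, the glycosylase that excises the oxidised bases TET enzymes make, had 3734, 4063 and 3943 counts in the EphA4 knockout libraries, against 1855, 2078 and 2521 in the control libraries. It rose to 107 ± 2.84 CPM against 56.5 ± 5.62 CPM in control (SD, n = 3 each, adjusted p = 3.3e-06), and an opposite-strand gene shares 6.83% of its exon bases. Neil1, another glycosylase, fell to 0.690 ± 0.418 CPM against 9.80 ± 0.955 CPM in control. Cxxc5, a CXXC protein reported to bind Tet2, fell to 0.401 ± 0.106 CPM against 4.35 ± 1.73 CPM, and Gadd45a, a stress gene proposed to aid demethylation, fell by 2.33 on the log2 scale, with 19.1% of its exon bases shared with an opposite-strand model.

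The list of methyl donor and cofactor genes had 7 higher and 8 lower of 18 (83.3% called against 71.5% of all genes), with a median log2 fold change of -0.13. Mat2a, which encodes the catalytic subunit making S-adenosylmethionine, had 8590, 8662 and 7858 counts in the EphA4 knockout libraries, against 1771, 1727 and 2139 in the control libraries. It rose 4.65-fold, to 230 ± 13.9 CPM against 49.3 ± 1.81 CPM in control (SD, n = 3 each, adjusted p = 5.4e-09), with 11.3% of its exon bases shared with an antisense model. Mtrr, Mthfd1 and Mtr, which serve the recycling of methionine and the folate supply, rose by log2 fold changes of 1.23, 1.14 and 1.03. Among the enzymes named after their values were seen, the isocitrate dehydrogenase genes Idh2 and Idh1, whose products make the 2-oxoglutarate TET enzymes use, fell by 0.95 and 0.77 on the log2 scale. Fh1, which removes fumarate, an inhibitor of TET enzymes, fell by 0.94. Metabolites were not measured.

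**Figure D5:**
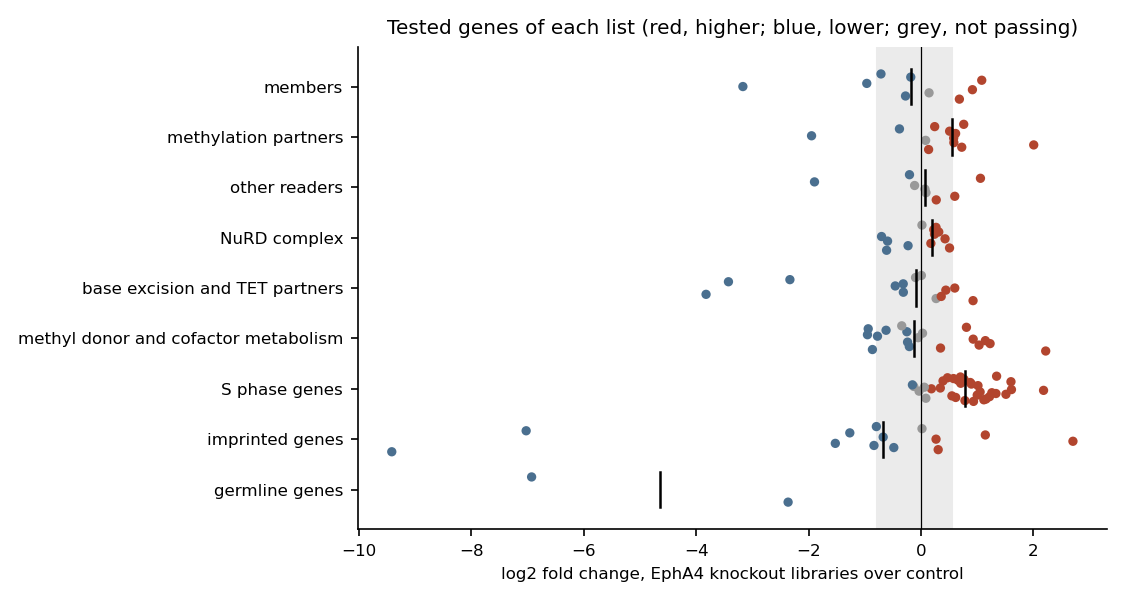
Log2 fold change of every tested gene of the 9 genes (members) and of each list, EphA4 knockout libraries over control, with the list's median as a black line and the interquartile range of all tested genes as a grey band. Points are red where called higher, blue lower and grey not passing. S phase genes centre at 0.78 and methylation partners at 0.55, and the positions of H19 and Brdt, which had 0 counts in the EphA4 knockout libraries, depend on the prior count.

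Genes known to be governed by DNA methylation were looked at in 2 lists. Of 21 germline genes that promoter methylation keeps silent in mouse somatic cells, 11 had 0 counts in all 6 libraries and only Ddx4 and Brdt passed the filter, through the control group. The summed level of the list was 0.270 to 0.699 CPM in the EphA4 knockout libraries and 1.36 to 1.94 CPM in the control libraries, so the list was near absent in both. Brdt, a testis bromodomain gene, had 0 counts in the EphA4 knockout libraries, against 13, 17 and 16 in the control libraries. That is at least 14.8-fold lower, taking 3 counts over the group as the floor for 0. Ddx4, a germ cell helicase gene, had 2, 3 and 11 counts in the EphA4 knockout libraries against 27, 36 and 23 in the control libraries.

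Imprinted genes, which are expressed from 1 parental allele, had 4 higher and 8 lower of 13 tested among 31, with a median log2 fold change of -0.67, which is the same with H19 at its bound. That is 92.3% called, against 71.5% of all tested genes, and H19 and Zim1 passed the filter only through the control group. H19, a non-coding RNA of the maternal allele, had 0 counts in the EphA4 knockout libraries, against 65, 116 and 76 in the control libraries, at least 82.8-fold lower by the same floor. Zim1, a neighbour of Peg3, had 3, 1 and 0 counts in the EphA4 knockout libraries against 215, 193 and 181 in the control libraries, a 142-fold decrease whose counting interval (95%) runs over 55.3 to 524. Kcnq1ot1, the long RNA that lies within Kcnq1 on the other strand and silences its neighbours in cis, had 2484, 2904 and 2541 counts in the EphA4 knockout libraries, against 441, 402 and 422 in the control libraries. It rose 6.51-fold (adjusted p = 1.9e-08), although without a stated strand setting reads of unspliced Kcnq1 cannot be told apart from it. Cdkn1c and Phlda2 of the same domain were named after their values were seen. Cdkn1c, below the filter, had 0 counts in the EphA4 knockout libraries and 3, 3 and 5 in the control libraries. Phlda2 went the other way, with 819, 683 and 766 counts against 590, 634 and 744 in control. Its log2 fold change was 0.27 (edgeR adjusted p = 0.038). An effect of Kcnq1ot1 on its neighbours was not tested. Plagl1 fell by 1.52 on the log2 scale. Of the 18 imprinted genes below the filter, 6 had 0 counts throughout, and none had more than 9 counts over the EphA4 knockout libraries or 23 over the control libraries. Counts per gene do not separate the parental alleles.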

How the data were processed

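The table the authors deposited holds unscaled read counts for each gene symbol in 6 libraries. Libraries were polyA-selected, per the labels' protocols, and aligned with STAR to GRCm39, per the submitters' processing notes. The sources used here do not give versions, the counter, its strand setting or its annotation. All 55418 symbols are in GENCODE M21, which is on GRCm38 and gave chromosomes, lengths and overlaps. Reads of overlapping models on opposite strands cannot be told apart.

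Genes were filtered with filterByExpr (15199 of 28042 with any count were kept), TMM-scaled and tested with edgeR 4.0.16 in R 4.3.3 (glmQLFTest after glmQLFit, a group term alone, two-sided, Benjamini-Hochberg over all genes tested). Intervals are 95%. Chi-square per degree of freedom between libraries of a group was 4.41 or more, so none was a duplicate. EphA4 knockout replicate 3 had 31.7 and 30.8 against replicates 1 and 2, and the other pairs had 4.41 to 8.89. Floors and counting intervals cover counting error only. The members and the 8 lists were chosen with earlier results of these data known. Named are all members and up to 4 called genes per list by size of change, with exceptions stated; some genes of the lists are not reported here. Alternatives used limma 3.58.1, DESeq2 1.42.0, other scalings and filters, a replicate block and each library left out. In counts simulated over 15199 genes, 50 genes were changed at each fold and all others left unchanged. Of these, 21 changed 1.5-fold, 30 changed 2-fold, 40 changed 4-fold and 47 changed 8-fold were recovered, and 6.12% of calls were false. In the data 71.5% of genes passed, so these shares do not describe this comparison. Exact permutation tests used scipy 1.17.1.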

Additional observations from a re-analysis of the deposited data

How the results depend on the processing

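Every direction of the 9 genes held under all alternatives that could be run. For Dnmt1, Uhrf1, Tet1, Tet2, Tet3, Mbd2 and Dnmt3a the call held too, and Dnmt3b never passed (log2 fold changes 0.07 to 0.35). With a filter of 5 CPM in 3 libraries Tet1 and Dnmt3b were not tested. Mbd1 lost its call under 7 of 15 alternatives (DESeq2 and each of the 6 left-out libraries), and the cause was not tested. Between 7 and 8 genes of the 9 and between 8681 and 11338 of all genes were called. Counts of called germline genes were 0 with the filter of 5 CPM, where none was tested, and 1 at an adjusted p of 0.01, against 2. Other lists stayed within 1.5 times. Family shares (EphA4 knockout minus control, in percentage points) kept their directions. With mean transcript lengths Dnmt1 was 11.5, Dnmt3a -11.2, Tet1 -4.81 and Tet3 33.2, against 6.53, -5.97, -2.81 and 30.9 with the longest. Dnmt3b was -0.267 with mean lengths and -0.345 with raw counts, against -0.566. With raw counts Dnmt1 was 9.05, Dnmt3a -8.70, Tet1 -3.97 and Tet2 -25.8, the last against -28.0. Same-numbered samples did not deviate together (correlations 0.00, 0.03 and 0.01), and not every sample correlated best with its own number, so the numbers were not taken as pairs. With the replicate block 10339 genes and 8 of the 9 were called. Depth limits Tet1 and Dnmt3b, with 9 to 15 and 149 to 210 counts per EphA4 knockout library.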

Other observations

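The balance of the methionine adenosyltransferase subunits differed between the groups. Mat2a, the catalytic subunit gene, rose while Mat2b, the regulatory subunit gene, fell by 0.86 on the log2 scale, to 29.6 ± 0.905 CPM against 53.9 ± 3.26 CPM in control (SD, n = 3 each, edgeR adjusted p = 2.2e-06). There were 7.83, 8.07 and 7.34 Mat2a counts per Mat2b count in the EphA4 knockout libraries and 0.930, 0.926 and 0.891 in the control libraries (two-sided exact permutation p = 0.1, the smallest possible). This ratio was chosen after the values were seen, and an antisense gene model shares 11.3% of the exon bases of Mat2a.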
